A study of Mus musculus with 2 samples.

Results

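Alcohol dehydrogenases (Adh), aldehyde dehydrogenases (Aldh), flavin monooxygenases (Fmo), aldehyde oxidases (Aox) and carboxylesterases (Ces) were described in mouse liver RNA as one group of enzymes that clear alcohols, aldehydes, amines, sulfides and esters outside the cytochrome P450 system. Members were the gene symbols that begin with one of these 5 family names followed by a digit. Some of these symbols are not reported here, which left 53 of the 22609 symbols in the read count tables. The rule used names and no measured value, but it was set with earlier results of these data known. A ratio was taken where a member reached 50 reads in sum, which left 38 measured members; of the other 15, 7 had 0 reads in both libraries.

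One liver library came from whole-body Lrg1 knockout and the other from C57BL/6J wild type, both labelled male and C57BL/6, and both on a diet with 45% of calories from fat for 16 weeks from 8 weeks of age. Lrg1 encodes a secreted leucine-rich glycoprotein. Each genotype had 1 library, and neither the number of animals behind it, nor the deleted stretch of Lrg1, nor the hour of collection is given. Every difference below therefore compares these libraries and has no replicate check, no p-value is given, and intervals are exact 95% intervals for counting error only.

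In liver, Adh enzymes oxidise alcohols to aldehydes and Aldh enzymes oxidise aldehydes to acids, so that ethanol becomes acetate and retinol becomes retinoic acid. Fmo enzymes add oxygen to soft nitrogen and sulfur atoms with NADPH, and Aox enzymes, which carry a molybdenum cofactor, oxidise aldehydes and nitrogen heterocycles. Ces enzymes split ester and amide bonds of drugs and lipids, and several lie in the endoplasmic reticulum of hepatocytes. Many of these genes are tandem copies, and the rodent Ces families are larger than the human ones.

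Read counts in genes summed to 18738397 in the library labelled Lrg1 knockout, called the KO-labelled library here, and to 23311906 in the wild-type library. CPM is the read count scaled to library depth after correction by the trimmed mean of M-values (TMM), and 1 read was worth 0.0519 CPM in the KO-labelled library and 0.0441 CPM in wild type. Lrg1 itself had 17572 reads (911.2 CPM) in the KO-labelled library and 26958 reads in wild type (1190.05 CPM), a ratio of 0.766 (0.751 to 0.780). Lrg1 reads were therefore present under the knockout label, and every direction below rests on that label. All 12 hepatocyte markers checked were measured, with a summed level of 123617 CPM in the KO-labelled library and 141107 CPM in wild type. Of these sums, Alb alone held 64406 CPM in the KO-labelled library and 79170 CPM in wild type. By direction, 4 of the 12 markers were higher in the KO-labelled library and 8 were lower.

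Among the 38 measured members, Aldh and Fmo genes mostly had lower counts and Ces genes mostly higher counts in the KO-labelled library. In all, 26 of 38 members (68.4%) had a log2 ratio of the KO-labelled library to wild type below 0, against 51.7% of the 11411 measured genes, and 12 were above 0, against 48.3%. The median log2 ratio was -0.15 over members and -0.01 over all measured genes. Under scaling by total count, which moves the median of all measured genes to 0.07, 22 members were below 0 and 16 above, since Adh4, Adh7, Aldh5a1 and Fmo4 turned sign. At 1.5-fold, 6 members (15.8%) were lower and 2 (5.26%) were higher, where the shares of all measured genes were 6.91% and 5.85%. The lower members were Aldh1b1, Fmo5, Fmo2, Aldh3b1, Aox1 and Aldh1a7, and the higher members were Adh6-ps1 and Ces1b. Under total count the members past 1.5-fold were 4 lower and 3 higher, beside 629 lower and 878 higher of all measured genes, with Aox1 and Aldh1a7 inside 1.5-fold and Ces1d past it. Only Adh6-ps1 was 2-fold higher, against 1.7% of all measured genes, and 0 members were 2-fold lower, against 2.5%. The interval of the ratio lay below 1 for 21 members and above 1 for 10, and it included 1 for the other 7. Such intervals cover counting error only and narrow as reads rise. The same count was not taken over all measured genes, so it does not set the members apart.

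**Figure D1:**
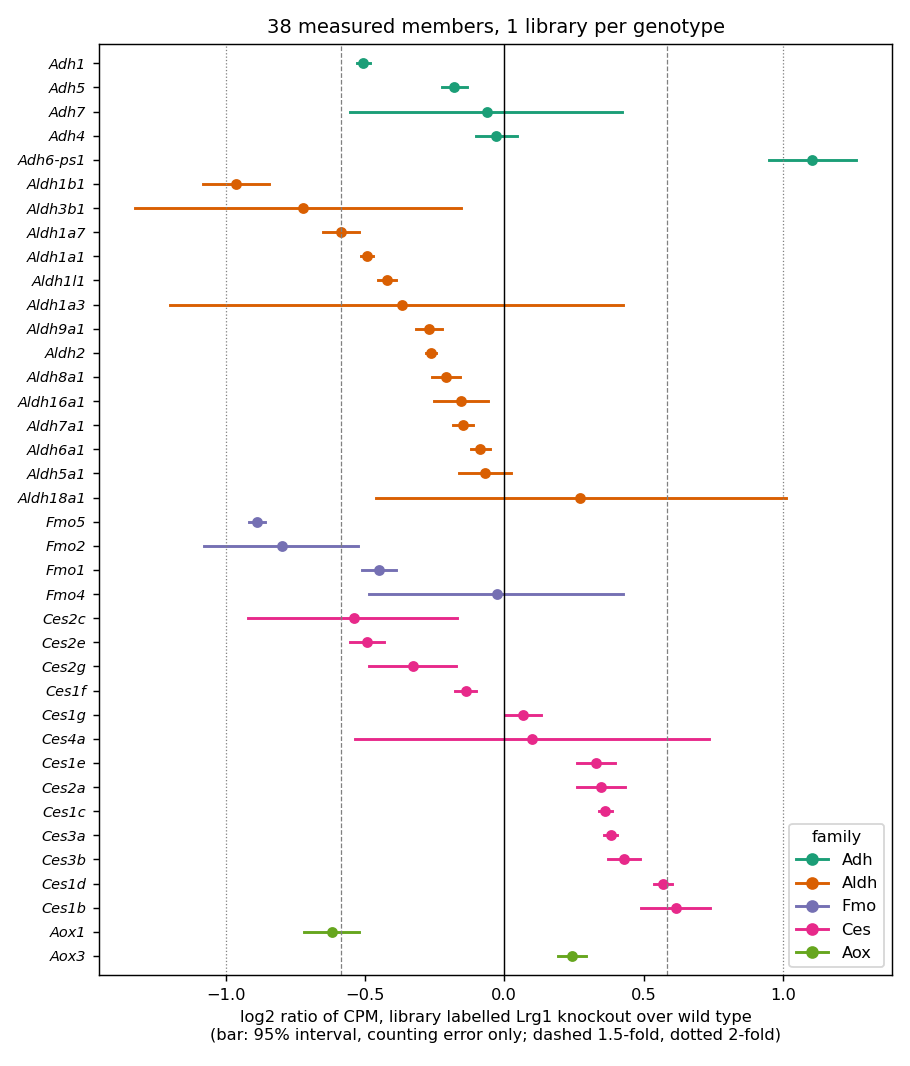
Log2 ratio of CPM, KO-labelled library over wild-type library, for the 38 measured members, sorted within family; points are ratios of 1 library per genotype and bars are exact 95% intervals for counting error. The 4 Fmo genes and 13 of 14 Aldh genes lie left of 0 (3 and 12 under total count), while 9 of 13 Ces genes lie right of it.

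The composition of the group could be read within each library without any scaling between them. Ces genes held 37.1% (37.0 to 37.3) of all member reads in the KO-labelled library and 27.0% (26.9 to 27.2) in wild type. Fmo genes held 6.20% (6.11 to 6.29) in the KO-labelled library and 9.72% (9.63 to 9.82) in wild type. Aldh genes held 42.7% and 47.7%, Adh genes 11.4% and 13.3%, and Aox genes 2.58% and 2.22%, the KO-labelled library given first in each pair. All 53 members together took 1.59% of gene reads in the KO-labelled library and 1.68% in wild type.

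**Figure D2:**
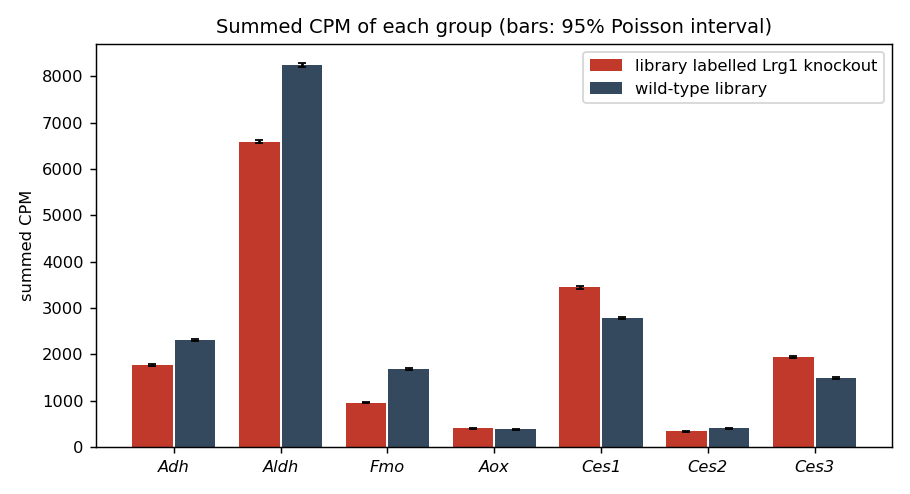
Summed CPM of all members of each family, with the Ces family split into Ces1, Ces2 and Ces3, in the KO-labelled library (left bar) and the wild-type library (right bar); error bars are 95% Poisson intervals. Adh, Aldh, Fmo and Ces2 sums are lower in the KO-labelled library, and Ces1 and Ces3 sums are higher.

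Among alcohol dehydrogenases, the most abundant member had the lowest ratio. Adh1, the class I enzyme that oxidises ethanol and retinol, had 23493 reads (1218 CPM) in the KO-labelled library and 39189 reads (1730.0 CPM) in wild type, a ratio of 0.704 (0.693 to 0.716). Adh5, the class III enzyme that oxidises the glutathione adduct of formaldehyde, had 6777 and 9015 reads in the KO-labelled and wild-type libraries, a ratio of 0.883 (0.856 to 0.911). The class II gene Adh4 had 2790 and 3344 reads (0.980, 0.932 to 1.03), so the libraries were not told apart for it by counting error. Adh7, the class IV enzyme known from stomach, had 66 and 81 reads (0.957, 0.681 to 1.34). The transcribed pseudogene Adh6-ps1, which lies between Adh6a and Adh4 on chromosome 3, went the other way, with 942 reads (48.9 CPM) in the KO-labelled library and 514 reads (22.7 CPM) in wild type. Its ratio of 2.15 (1.93 to 2.40) was the highest of all measured members. Adh6a, the protein-coding member before Adh6-ps1 in the order of members on chromosome 3, had 0 reads in both libraries. A count of 0 allows a level of up to 0.156 CPM in the KO-labelled library and 0.132 CPM in wild type (3 counts). As a sum, Adh reads gave 1767 CPM in the KO-labelled library and 2302 CPM in wild type, a ratio of 0.768 (0.757 to 0.778), whereas the median log2 ratio over the 5 measured Adh genes was -0.06, and 0.0195 under total count. Adh1 held 69.0% of Adh reads in the KO-labelled library and 75.2% in wild type.

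Aldehyde dehydrogenases were lower in the KO-labelled library for 13 of 14 measured genes (12 under total count), with a median log2 ratio of -0.27 and a range from -0.96 for Aldh1b1 to 0.27 for Aldh18a1. Summed over the family, the level was 6595 CPM in the KO-labelled library and 8249 CPM in wild type, a ratio of 0.799 (0.794 to 0.805).

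Among enzymes of retinaldehyde and acetaldehyde oxidation, ratios ran from 0.513 for Aldh1b1 to 0.833 for Aldh2. Aldh1a1, the cytosolic retinaldehyde dehydrogenase, had 30673 reads (1591 CPM) in the KO-labelled library and 50707 reads (2238 CPM) in wild type, a ratio of 0.711 (0.701 to 0.721). Aldh1a7, a rodent copy of it that lies beside it on chromosome 19, had 2949 and 5202 reads (0.666, 0.636 to 0.697). The coding sequences of these copies were identical at 91.6% of aligned bases, and 6.54% of the 50-base windows of the Aldh1a1 transcript were found in the transcript of another gene. Aldh1a7 took 8.77% (8.47 to 9.08) of the reads of this pair in the KO-labelled library and 9.30% (9.06 to 9.55) in wild type, with intervals that overlapped narrowly. Aldh1a3, a retinaldehyde dehydrogenase of other tissues, had 23 reads in the KO-labelled library and 35 in wild type. Its interval included 1 (0.772, 0.435 to 1.34). Aldh1a2 had 0 and 3 reads.

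Aldh2, the mitochondrial enzyme that clears acetaldehyde, was the member with the most reads, 42787 (2219 CPM) in the KO-labelled library and 60369 (2665 CPM) in wild type, a ratio of 0.833 (0.822 to 0.843). Aldh1b1, another mitochondrial enzyme that accepts acetaldehyde, had 841 reads (43.6 CPM) in the KO-labelled library and 1926 reads (85.0 CPM) in wild type. Its ratio of 0.513 (0.472 to 0.557) was the lowest of all measured members, and its coding sequence shared 70.2% of aligned bases with Aldh2. Of the reads of Aldh1b1 and Aldh2 together, Aldh1b1 took 1.93% (1.80 to 2.06) in the KO-labelled library and 3.09% (2.96 to 3.23) in wild type.

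Aldh1l1, the cytosolic 10-formyltetrahydrofolate dehydrogenase, had 12484 reads in the KO-labelled library and 19633 in wild type (0.747, 0.730 to 0.764). Its mitochondrial counterpart Aldh1l2 was nearly silent, with 6 and 5 reads. The enzymes tied to amino acid and carnitine routes differed less than Aldh1l1. Aldh9a1, which acts in carnitine synthesis, had 6252 and 8851 reads (0.830, 0.803 to 0.857), and Aldh8a1, of tryptophan breakdown, had 5631 and 7649 reads (0.865, 0.835 to 0.895). Aldh7a1, of lysine breakdown, stood at 0.902 (0.879 to 0.925), and Aldh6a1, of valine breakdown, at 0.942 (0.919 to 0.965). The interval of Aldh5a1, which oxidises succinic semialdehyde from GABA, included 1 (0.953, 0.893 to 1.02). Aldh16a1 had 1542 and 2019 reads (0.897, 0.839 to 0.959). The remaining Aldh genes were near the limit of detection. Aldh3b1 had 39 and 76 reads (0.603, 0.399 to 0.898), and Aldh3a1, known from cornea, had 2 and 2. Aldh18a1, which starts proline synthesis, had 34 and 33 reads, with an interval that included 1 (1.21, 0.727 to 2.02).

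Flavin monooxygenases showed the lowest family sum ratio. All 4 measured Fmo genes were below 0 (Fmo4 turned above 0 under total count), with a median log2 ratio of -0.62, and the sum of the family was 958 CPM in the KO-labelled library and 1681 CPM in wild type, a ratio of 0.570 (0.560 to 0.580). Fmo5, which catalyses Baeyer-Villiger oxidation and is the Fmo gene with most reads here, had 14646 reads (759.5 CPM) in the KO-labelled library and 31857 reads (1406 CPM) in wild type, a ratio of 0.540 (0.530 to 0.551). Without Fmo5 the sum of the other Fmo genes still differed, at 198 CPM in the KO-labelled library and 275 CPM in wild type (0.722, 0.694 to 0.752). Fmo1, a broad monooxygenase of drugs, had 3584 and 5753 reads (0.732, 0.702 to 0.763). Fmo2, known best from lung, had 164 and 335 reads (0.575, 0.474 to 0.695). Fmo4 had 76 and 91 reads, with an interval that included 1 (0.981, 0.714 to 1.34). These genes are not close copies: the coding sequence of Fmo1 was identical to that of Fmo5 at 60.5% and to that of Fmo2 at 62.3% of aligned bases, and 0 windows of the Fmo1 and Fmo2 transcripts were shared with another gene.

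The member just above the minimum of 50 reads was Aldh1a3, with 58 reads in all. Fmo6 and Fmo9 had 0 reads in both libraries.

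Because fewer cells of a type and less RNA per cell cannot be told apart in bulk liver, markers of other cells were set beside these values. Summed markers of sinusoidal endothelium were at 423 CPM in the KO-labelled library and 294 CPM in wild type, with 10 of 12 markers higher. Summed Kupffer cell and macrophage markers were at 417 and 554 CPM, with 9 of 10 measured markers lower in the KO-labelled library. Stellate cell and fibroblast markers were at 636 and 615 CPM, with 10 of 13 higher. The 3 lower ones were the collagens Col1a1, Col3a1 and Col1a2, at ratios of 0.477, 0.677 and 0.794. Dcn alone held 220 CPM of this sum in the KO-labelled library and 216 CPM in wild type. The part of these cell types in the values of the low-level genes Fmo2, Aldh1a3 and Aldh3b1 was not tested. Adipocyte markers summed to 24.8 CPM in the KO-labelled library and 47.5 CPM in wild type, with 1 of 3 measured markers higher and 2 lower. Cfd alone accounted for 5.39 CPM in the KO-labelled library and 31.4 CPM in wild type, while Adrb3 was at 9.75 and 4.28 CPM, and Lep, Plin1 and Retn had 0 reads in both.

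The aldehyde oxidases Aox1 and Aox3 lie side by side on chromosome 1 and went in opposite directions. Aox1 had 1290 reads (66.9 CPM) in the KO-labelled library and 2327 reads (102.7 CPM) in wild type, a ratio of 0.651 (0.608 to 0.697). Aox3, the more abundant liver form, had 6407 reads (332 CPM) in the KO-labelled library and 6359 reads (281 CPM) in wild type, a ratio of 1.18 (1.14 to 1.23). Within the pair, Aox3 took 83.2% (82.4 to 84.1) of reads in the KO-labelled library and 73.2% (72.3 to 74.1) in wild type, a difference that does not depend on scaling. Their coding sequences shared 67.6% of aligned bases, and 0 of their 50-base windows were found in another gene. The sum of the family was nearly level, at 399 CPM in the KO-labelled library and 383 CPM in wild type (1.04, 1.01 to 1.07). Aox3l1, now named Aox2 and known from olfactory mucosa, had 1 read in each library, and Aox4 had 0 in both.

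The 250 bases before the start of each gene are shown because these neighbours went in opposite directions. They come from RefSeq on GRCm38.p6, plus strand, at chr1:58029719-58029968 for Aox1 and chr1:58112886-58113135 for Aox3. The windows matched at 55.8% of aligned bases, and neither held any of the 7 motifs searched, which are given with the Ces1 genes.
Aox1: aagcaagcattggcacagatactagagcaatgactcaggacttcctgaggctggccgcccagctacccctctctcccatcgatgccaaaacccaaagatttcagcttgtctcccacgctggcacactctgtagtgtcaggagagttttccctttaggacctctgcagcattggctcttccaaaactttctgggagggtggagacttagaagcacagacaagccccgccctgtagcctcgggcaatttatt
Aox3: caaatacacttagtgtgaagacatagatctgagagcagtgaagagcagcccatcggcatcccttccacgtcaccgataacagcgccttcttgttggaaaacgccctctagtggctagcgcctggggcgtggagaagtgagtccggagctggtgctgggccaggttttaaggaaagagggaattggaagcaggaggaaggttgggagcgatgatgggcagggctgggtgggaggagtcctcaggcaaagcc

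Of the 5 families, Ces alone had a median above 0 (under total count Adh was at 0.0195 too), at a log2 ratio of 0.33 over 13 measured genes, of which 9 were above 0 under every scaling tried. The sum was 5737 CPM in the KO-labelled library and 4675 CPM in wild type, a ratio of 1.23 (1.22 to 1.24). The Ces1 and Ces3 sums were higher and the Ces2 sum was lower, although single Ces1 and Ces2 genes went both ways.

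Ces1 genes summed to 3446 CPM in the KO-labelled library and 2783 CPM in wild type, a ratio of 1.24 (1.23 to 1.25). Ces1c, the carboxylesterase secreted into mouse plasma, had 32111 reads (1665 CPM) in the KO-labelled library and 29336 reads (1295.0 CPM) in wild type, a ratio of 1.29 (1.27 to 1.31). Ces1d, the triacylglycerol hydrolase that mobilises stored lipid for lipoprotein assembly, had 16230 reads (842 CPM) and 12847 reads (567 CPM), a ratio of 1.48 (1.45 to 1.52). Ces1b had 1249 and 958 reads (1.53, 1.41 to 1.67), and Ces1e, which binds beta-glucuronidase in the endoplasmic reticulum, had 3626 and 3387 reads (1.26, 1.20 to 1.32). Ces1g, a lipid esterase of liver, was almost level at 3657 and 4102 reads (1.05, 1.001 to 1.095). Ces1f was the exception, with 9583 reads (497 CPM) in the KO-labelled library and 12396 reads (547 CPM) in wild type, a ratio of 0.908 (0.884 to 0.933). Of the reads of Ces1d and Ces1f together, Ces1d took 62.9% (62.3 to 63.5) in the KO-labelled library and 50.9% (50.3 to 51.5) in wild type. The coding sequences of Ces1d and Ces1f shared 77.9% of aligned bases, and at most 1.6% of the windows of either were found in another gene. Ces1a had 2 and 6 reads.

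Ces3a and Ces3b are close copies, alike at 95.3% of coding bases, so 30.9% of Ces3a windows and 26.1% of Ces3b windows were found in another gene and their single values are uncertain. Ces3a had 32553 reads in the KO-labelled library and 29355 in wild type (1.30, 1.28 to 1.32), and Ces3b had 5019 and 4376 (1.35, 1.29 to 1.40). Their sum, to which reads that align to both copies do not add, gave a ratio of 1.31 (1.29 to 1.33).

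The Ces2 branch held members in both directions. Ces2e had 3617 reads (188 CPM) in the KO-labelled library and 5978 reads (264 CPM) in wild type, a ratio of 0.711 (0.682 to 0.741), and Ces2g had 572 and 844 reads (0.796, 0.715 to 0.886). Ces2c had 96 and 164 reads (0.688, 0.529 to 0.890), but 42.2% of its windows were found in another gene. Ces2a was higher, with 2269 reads (118 CPM) in the KO-labelled library and 2094 reads (92.4 CPM) in wild type, a ratio of 1.27 (1.20 to 1.35), and 22.2% of its windows were found in another gene. Ces2a took 38.5% (37.3 to 39.8) of the reads of Ces2a and Ces2e in the KO-labelled library and 25.9% (24.99 to 26.91) in wild type. The sum of Ces2 genes was 340.1 CPM in the KO-labelled library and 401 CPM in wild type (0.848, 0.822 to 0.876). Ces2b had 4 reads and 1 read, the pseudogene Ces2d-ps 1 and 2, and Ces2f 0 in both. Ces4a had 42 and 46 reads, with an interval that included 1 (1.07, 0.689 to 1.67). Ces5a, known from kidney and epididymis, had 0 in both.

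**Figure D3:**
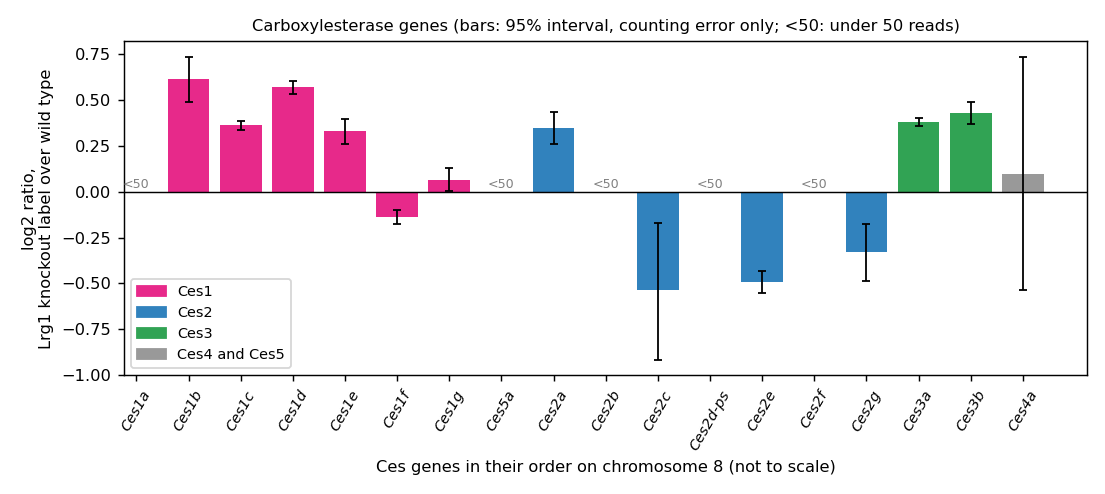
Log2 ratio of the KO-labelled library over wild type for the Ces genes in their order on chromosome 8, coloured by branch; error bars are exact 95% intervals for counting error, and members under 50 reads have no bar. Bars of both signs stand side by side within the Ces1 and the Ces2 stretches.

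Ces2a and Ces2e, with coding sequences alike at 83.3%, are shown as another pair of copies that went in opposite directions. Their windows of 250 bases before the start come from RefSeq on GRCm38.p6, plus strand, at chr8:104733753-104734002 for Ces2a and chr8:104926010-104926259 for Ces2e. They matched at 69.9% of aligned bases and held none of the 7 motifs.
Ces2a: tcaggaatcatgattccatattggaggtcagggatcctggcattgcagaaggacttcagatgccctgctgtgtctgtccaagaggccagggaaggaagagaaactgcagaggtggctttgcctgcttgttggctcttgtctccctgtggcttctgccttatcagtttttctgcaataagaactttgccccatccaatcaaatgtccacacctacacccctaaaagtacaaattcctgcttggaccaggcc
Ces2e: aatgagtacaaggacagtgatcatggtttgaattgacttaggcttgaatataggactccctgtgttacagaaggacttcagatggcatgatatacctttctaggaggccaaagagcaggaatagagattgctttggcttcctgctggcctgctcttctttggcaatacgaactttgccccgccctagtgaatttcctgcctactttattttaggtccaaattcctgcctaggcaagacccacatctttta

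Start regions of 4 Ces1 genes that lay above 0 were compared; those of Ces1d, which was higher, and Ces1f, the one lower Ces1 gene, were not searched. The search covered both strands of the 250 bases before the start for 7 motifs. They were TATAAA, known to bind TBP, TTCNNNGAA, known for STAT factors, CACGTG, the E-box, CAAAGTCCA, known for Hnf4a, and the palindromic Hnf1 motif. The D-box of the PAR bZIP factors and Nfil3 was searched as TTATGTAA and as TTACGTAA. RefSeq listed a start for 30 of the 38 measured members that could be searched. TTATGTAA was found in 3 of these 30, namely Ces1c, Ces1e and Ces1g, and in 0.819% of all 32851 windows. Ces1b has 2 listed starts, and TTATGTAA lies in the window of the downstream one. TATAAA was found in 5 of 30 (12.4% of all windows), TTCNNNGAA in 3 (7.02%) and CACGTG in 1 (6.02%), and the other motifs in 0. The 4 windows, all on the minus strand of GRCm38.p6, lie at chr8:93079941-93080190 for Ces1b, chr8:93131284-93131533 for Ces1c, chr8:93229620-93229869 for Ces1e and chr8:93337210-93337459 for Ces1g, with capitals for TTATGTAA and, in Ces1g, for TATAAA on the opposite strand. These genes are outside the rule for shown sequences except Ces1b and were chosen after their values were seen.
Ces1b: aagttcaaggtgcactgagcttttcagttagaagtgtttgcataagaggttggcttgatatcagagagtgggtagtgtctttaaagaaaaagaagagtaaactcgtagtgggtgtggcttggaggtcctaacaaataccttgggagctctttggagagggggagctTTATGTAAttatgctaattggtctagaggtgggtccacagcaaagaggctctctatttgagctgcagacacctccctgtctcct
Ces1c: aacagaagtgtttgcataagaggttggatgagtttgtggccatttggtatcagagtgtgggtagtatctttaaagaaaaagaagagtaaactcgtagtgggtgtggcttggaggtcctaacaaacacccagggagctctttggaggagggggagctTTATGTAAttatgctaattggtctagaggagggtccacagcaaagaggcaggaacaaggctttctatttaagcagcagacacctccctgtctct
Ces1e: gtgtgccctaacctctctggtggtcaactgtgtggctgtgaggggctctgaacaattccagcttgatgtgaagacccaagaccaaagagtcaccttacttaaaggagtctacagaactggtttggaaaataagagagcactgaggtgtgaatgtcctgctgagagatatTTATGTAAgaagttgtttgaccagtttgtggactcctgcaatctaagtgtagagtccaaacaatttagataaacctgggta
Ces1g: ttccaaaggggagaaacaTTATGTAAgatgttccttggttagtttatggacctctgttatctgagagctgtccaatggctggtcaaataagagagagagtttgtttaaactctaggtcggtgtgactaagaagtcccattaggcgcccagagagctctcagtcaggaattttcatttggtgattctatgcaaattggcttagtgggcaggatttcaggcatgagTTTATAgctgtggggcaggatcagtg

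The motif starts 84, 94 and 81 bases before the start in Ces1b, Ces1c and Ces1e, and 232 bases before it in Ces1g. The windows of Ces1b and Ces1c were alike at 94.6% of aligned bases, so the motif in this pair is not independent. The other pairs were alike at 57.3% to 64.2%, and whether the motif arose independently in them was not tested. Of the regulators that bind this motif, Dbp had 193 reads in the KO-labelled library and 2249 in wild type (0.101, 0.0866 to 0.117), and Tef had 1386 and 4166 (0.391, 0.368 to 0.415). Hlf had 1369 and 2146 reads, a log2 ratio of -0.42, and the repressor Nfil3 had 950 and 581 reads, a log2 ratio of 0.94. A match in a window is a description of letters, and whether any factor bound there was not tested.

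Levels compared per length put the same 5 genes at the top of both libraries. In the KO-labelled library the highest levels per kilobase of transcript were those of Ces1c (911 CPM per kb), Ces3a (825), Adh1 (817), Aldh1a1 (675) and Aldh2 (574). In wild type the order was Adh1 (1160 CPM per kb), Aldh1a1 (949), Ces1c (708), Aldh2 (689) and Ces3a (633). Ces1c thus stood at rank 1 in the KO-labelled library and rank 3 in wild type, and Adh1 at rank 3 and rank 1. Ces1d stood at rank 6 in the KO-labelled library and 8 in wild type, and Fmo5 stood at rank 12 in the KO-labelled library and 9 in wild type. At the low end, Aldh18a1 had 0.50 CPM per kb in the KO-labelled library and 0.413 in wild type, and Aldh1a3 had 0.346 and 0.449.

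**Figure D4:**
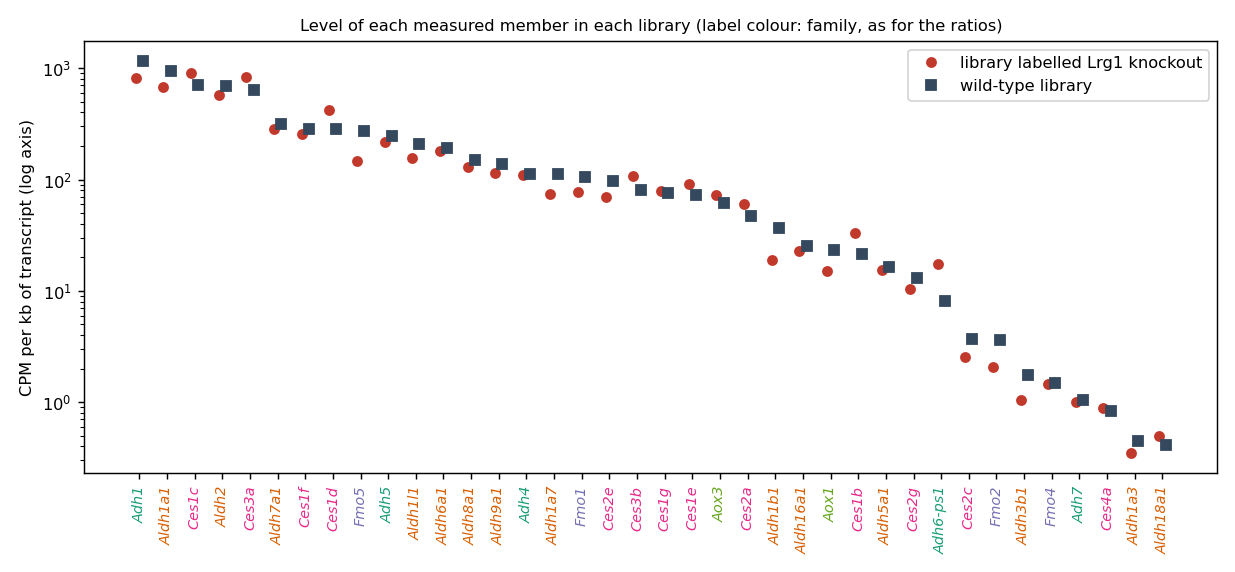
Level of each measured member in CPM per kilobase of transcript on a log axis, in the KO-labelled library (circles) and the wild-type library (squares), sorted by the wild-type level. Levels run from 0.346 CPM per kb for Aldh1a3 to 1160 CPM per kb for Adh1, and Ces1c, Ces3a and Ces1d lie above their wild-type squares while Adh1, Aldh1a1 and Fmo5 lie below.

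Other genes of the same routes, from 8 lists chosen for their function, had medians between -0.21 and -0.03. Their counts stand beside 51.7% of all measured genes below 0, 6.91% at least 1.5-fold lower and 5.85% at least 1.5-fold higher, and several lists lie near these shares. Of 21 measured genes of other alcohol and aldehyde enzymes, 17 were below 0, 3 were at least 1.5-fold lower and 0 were 1.5-fold higher, with a median log2 ratio of -0.15. They include Cyp2e1, the microsomal ethanol oxidase, at -0.12, and catalase (Cat) at -0.07, while Acss2, which turns acetate into acetyl-CoA, was at -0.74. Of 25 retinoid genes, 3 were 1.5-fold lower and 1 was higher (median -0.03), and Rdh9, a retinol dehydrogenase, was 2-fold lower at -1.33 with 1570 reads in the KO-labelled library and 4625 in wild type. Among 15 genes of the molybdenum cofactor and other oxidases, 1 was 1.5-fold lower and 1 was higher (median -0.08). Xdh, the xanthine dehydrogenase related to Aox, was at -0.58. Among 10 microsomal electron donors, 1 was 1.5-fold lower and 0 were higher (median -0.16): Por, which passes electrons from NADPH to P450 enzymes, had 4463 reads in the KO-labelled library and 9949 in wild type (-0.92).

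Of 32 other ester and lipid hydrolases, 3 were 1.5-fold lower and 1 was higher, with a median of -0.08, below the Ces median of 0.33. In this list 13 genes were above 0 and 19 below, over a range from -0.95 to 0.72, so single hydrolases also lay above the Ces median. Among them Aadac, an arylacetamide esterase of the same compartment, was at 0.11 and the hepatic lipase Lipc at 0.03. Of 18 folate genes, 2 were 1.5-fold lower and 1 was higher (median -0.17). Of 21 partners in the valine, lysine, proline, GABA and carnitine routes, 1 was 1.5-fold lower and 1 was higher (median -0.12). Of 18 regulators, 2 were 1.5-fold lower and 1 was higher (median -0.21): the xenobiotic receptors Nr1i2 (PXR) and Nr1i3 (CAR) were at -0.52 and -0.14, Hnf4a was at -0.51, Nfe2l2 at -0.15 and Ppara at -0.22. Apart from Rdh9, Dbp and Tef, the genes named here and in the D-box comparison were named for their role after values were seen.

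**Figure D5:**
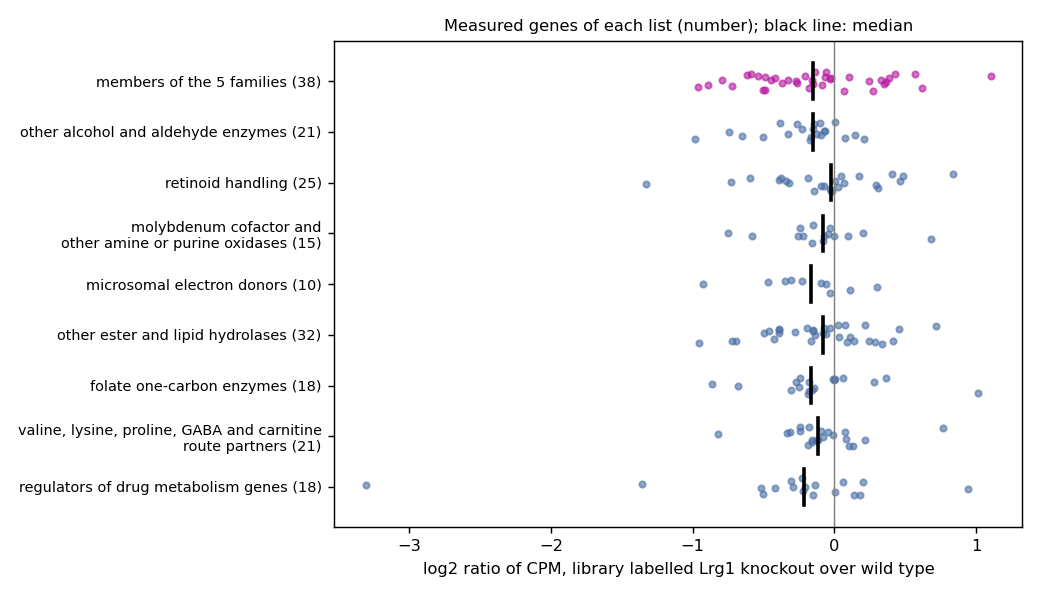
Log2 ratio of the KO-labelled library over wild type for the 38 measured members and for the measured genes of 8 functional lists (number in brackets), with black lines for medians. The medians of the lists lie between -0.21 and -0.03, and single points reach -3.31 for Dbp.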

How the data were processed

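RNA was measured in 1 liver library labelled Lrg1 knockout and 1 wild-type liver library, sequenced as single 50-base reads from poly(A)-selected, strand-marked libraries, per the labels' protocols. Per the submitters' processing notes, bcl2fastq, TopHat2 and HTSeq and the build mm9 were used; for versions, annotation and strand setting, nothing is given in these sources. Read counts for each gene symbol were taken as the authors deposited them, with no normalization. Lines that name no gene were kept out of depth: of unique alignments, 14.4% in the library labelled knockout and 14.0% in wild type fell outside genes, and 0.234% and 0.231% fell in more than 1 gene.

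Counts were scaled by TMM in edgeR 4.0.16 under R 4.3.3 (factors 1.03 for the library labelled knockout and 0.972 for wild type), and log2 ratios used a prior count of 0.5. Ratios have exact Clopper-Pearson intervals at 95%, given the sum of both counts, shares have Clopper-Pearson intervals, and plotted sums exact Poisson intervals; a count of 0 is given a limit of 3 counts. All cover counting error only, and no molecular identifiers are described, so PCR copies may be counted as separate reads. With 1 library per group no test was possible. Genes with at least 50 reads over both libraries counted as measured (11411 genes, 99.9% of reads). The steps were checked on simulated data.

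Transcript lengths, gene order, coding identity and shared 50-base windows came from GENCODE M21 on GRCm38 for all 53 members, 1 principal transcript each. Since that build is not mm9, coordinates are given only for RefSeq start regions. Windows were searched on both strands of all annotated transcripts and not in the genome. Unique alignments only were counted, so members with shared windows may be undercounted. Biopython 1.88, numpy 2.4.6, pandas 2.3.3, scipy 1.17.1 and matplotlib 3.10.9 were used under Python 3.11.15.

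Every measured member could be named, other list genes from 300 reads and 2-fold (at most 4 per list), and start regions shown for members past 1.5-fold with 300 reads or for copies in opposite directions; further Ces1 start regions, read-share pairs and identity pairs were chosen after values were seen. Other members that met this rule are not printed. The members, lists, pairs and rules were chosen with earlier results of these data known. Some symbols of these families are not reported here. The alternatives were total count, DESeq2 1.42.0 size factors, total count without the 20 most abundant genes, raising the prior count to 2, asking for 1, 10 or 200 reads in sum, taking means, and leaving out members with over 25% shared windows.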

Additional observations from a re-analysis of the deposited data

Results flagged for a closer look

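Non-unique alignments were 58.0% of counted lines under the knockout label and 50.3% under the wild-type label. They are listed because no comparison above uses them. The lines numbered 30368128 in the library labelled knockout and 27554856 in wild type, or 1.62 and 1.18 for each gene read; reads with many alignments may be repeated among them. Among measured members, Ces2c, Ces3a and Ces3b had over 25% of their 50-base windows in another gene; how many of these lines came from any member was not tested.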

How the results depend on the processing

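The values below are log2 ratios of the library labelled Lrg1 knockout to wild type unless given as counts. Scaling by total count moved all 38 measured members up by 0.08 and the median of all measured genes to 0.07, against -0.01; leaving out the 20 most abundant genes from the total moved members by 0.06. Under either, 0 members past 1.5-fold changed sign, and Adh4 and Fmo4 (with Adh7 and Aldh5a1 under total count) did. Under total count, Lrg1 was at -0.30, the summed reads were at -0.30 for Adh, -0.24 for Aldh, -0.73 for Fmo, 0.38 for Ces, 0.14 for Aox, 0.39 for Ces1, -0.15 for Ces2 and 0.47 for Ces3, and the medians were -0.07 over all members, 0.0195 for Adh (sign turned), 0.41 for Ces and -0.10 for Aox. Of the lists, other alcohol and aldehyde enzymes were at -0.0662, electron donors at -0.0822 and amino acid and carnitine partners at -0.0352, while retinoid genes (0.0563), molybdenum cofactor and other oxidases (0.0049) and other hydrolases (0.0048) turned above 0. With those 20 genes left out of the total, Lrg1 was at -0.33, the sums at -0.32 for Adh, -0.26 for Aldh, -0.75 for Fmo, 0.35 for Ces, 0.12 for Aox, 0.37 for Ces1, -0.18 for Ces2 and 0.45 for Ces3, other alcohol and aldehyde enzymes at -0.0897 and retinoid genes at 0.0328, again turned. DESeq2 size factors and a prior count of 2 moved every member by at most 0.02, and DESeq2 size factors left 5 members 1.5-fold lower in place of 6, since Aldh1a7 sits at the threshold.

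From 1 read, 2 members were 2-fold higher and 3 were 2-fold lower, and the medians were -0.80 for Fmo, 0.22 for Ces and 0.15 for Aox, which turned above 0. From 10 reads, 1 member was 2-fold lower and the Fmo median was -0.80; from 200 reads it was -0.80. With means, Adh stood at 0.0657, which turned its sign, and Ces at 0.13. Without members that share over 25% of windows the Ces median was 0.22. Filters and means act here through which genes enter, and the scalings by a constant shift; no other cause was tested. The signs of the Adh and Aox medians, and of the retinoid, oxidase and hydrolase lists, are therefore not settled.

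No paired analysis was possible because each group has 1 library, and for the same reason no library was left out. Depth limits members under 50 reads, where 1 read is worth 0.0519 CPM in the library labelled knockout and 0.0441 CPM in wild type.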
